A study of Sus scrofa with 40 samples.

Results

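The importin alpha family of the pig oocyte, KPNA1 to KPNA7, was described together with its carrier KPNB1 in mature oocytes with deficient or normal mitochondrial DNA (mtDNA). The 8 genes were taken by name from the 38794 rows that name a gene in the count tables. Of these, 6 had a row under their own symbol. KPNA4 and KPNA6 had none, and the rows LOC100620632 and LOC100621713 were used for them. The number in each row name is the gene ID that RefSeq gives to that gene in Sscrofa11.1. The counts were made on the older build Sscrofa10.2, and whether these rows cover the whole gene there was not checked.

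RNA was sequenced from 5 pools of mtDNA-deficient oocytes, 6 pools of mtDNA-normal oocytes, 14 single mtDNA-deficient oocytes and 15 single mtDNA-normal oocytes. All were mature pig oocytes arrested in metaphase of the second meiotic division, from a commercial cross of the Large White, Duroc and Berkshire breeds. Per the labels, pools carry the word SPIA, were extracted with the Arcturus Picopure kit and amplified with Nugen Ovation kits, while single oocytes were extracted in the tube and prepared with the Nugen SoLo kit and pig InDA-C primers. The number of oocytes in a pool is not given in the labels, and the pools bear title codes with the letters A and B whose meaning is not stated. The way mtDNA state was told apart is given only as the letters BCB in titles of single oocytes, and no label ties the libraries of a group to different animals. A p-value here therefore reflects the scatter of these libraries, which may be technical.

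Importin alpha proteins are adaptors: they bind the nuclear localization signal of a cargo and hand it to importin beta 1, the product of KPNB1, which takes the complex through the nuclear pore. Ran bound to GTP frees the cargo inside the nucleus, and the exportin CSE1L returns importin alpha to the cytoplasm. The adaptors fall into separate branches, KPNA2 with KPNA7, KPNA3 with KPNA4, and KPNA1 with KPNA5 and KPNA6. KPNA7 is the member known from oocytes and early embryos, and its depletion impairs the development of pig embryos. In a cell without a nuclear envelope, as in the arrested oocyte, importins are known for holding spindle assembly factors until Ran releases them.

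A pool held 14480546 to 29538982 counts in named genes and a single oocyte 706929 to 3067523. The row LOC102158401 took 46.7% to 70.7% of the counts of a deficient oocyte and 56.2% to 76.0% of those of a normal oocyte, but under 0.03% of those of any pool. Levels are given as CPM, the counts of a gene scaled to the counts in named genes of its library, so those of single oocytes are lowered by that row and are also given without it where this matters. Summed oocyte markers reached 6514 to 13584 CPM in deficient pools and 6456 to 12796 CPM in normal pools, against 61.2 to 192 CPM and 106 to 166 CPM for 14 markers of cumulus and granulosa cells. Of the 13 oocyte markers, 10 averaged at least 10 CPM over the pools, led by BTG4, BMP15 and GDF9. DDX4, FIGLA and NOBOX averaged 5.83, 0.482 and 0.0099 CPM. Of the cumulus and granulosa markers, AMH, INHA, FOXL2, KRT8 and KRT18 had no count in any pool, and INHBA and VCAN gave most of the sum. In single oocytes these markers summed to 19 to 54.3 CPM in deficient and 6.52 to 42.5 CPM in normal ones. Pools and single oocytes mix no other labelled cell type, but in any bulk library fewer cells of a type and less RNA per cell cannot be told apart. No transcript lengths were used, so levels were compared between libraries and not between members, and shares within the family are shares of counts.

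KPNA7 was one of the most heavily counted genes of the pools and did not differ between mtDNA states beyond the spread of the libraries. It measured 1494, 1012, 971, 2657 and 1195 CPM in deficient pools A1, A2, A3, B2 and B4. In normal pools A2, A3, A4, B1, B2 and B4 it measured 1532, 1007, 1144, 969, 2516 and 1780 CPM. The ranges overlapped almost fully, and the highest value of each state came from the pool titled B2. The means were 1466 ± 697 CPM (SD, n = 5) in deficient pools and 1491 ± 594 CPM (SD, n = 6) in normal pools. The log2 difference, deficient over normal, was 0.11 (SE 0.26, 95% interval -0.43 to 0.65) with an adjusted p of 0.966 in edgeR's quasi-likelihood test with Benjamini-Hochberg adjustment over 13540 genes. It was -0.14 without deficient pool B2 and 0.26 without normal pool B2. Of the genes tested in pools, 99.5% had a lower mean log2 CPM than KPNA7, and 19.7% varied less over the 11 pools (SD 0.41 for KPNA7, against a median of 0.72 over tested genes).

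KPNA2, the adaptor of the same branch and a common form in dividing cells, also overlapped between states. Deficient pools had 1031, 438, 631, 1147 and 923 CPM, in the order of titles used for KPNA7. Normal pools had 1217, 511, 1083, 809, 1373 and 1307 CPM. The lowest pool of each state, deficient A2 and normal A3, was also the pool of that state with the fewest genes detected, 14207 and 15057. The log2 difference was -0.19 (SE 0.21, 95% interval -0.65 to 0.26; adjusted p = 0.925 by edgeR). With TMM factors, 12.3% of tested genes had a smaller SD of log2 CPM than KPNA2 over the 11 pools, and 98.8% had a lower mean log2 CPM. The part of level in that rank was not tested.

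KPNA3 and KPNA4 form the next branch. KPNA3 measured 145, 138, 179, 110 and 171 CPM in deficient pools and 182, 158, 209, 217, 123 and 202 CPM in normal pools. The groups overlapped, with B2 the lowest pool of each state, and the log2 difference was -0.14 (SE 0.22; adjusted p = 0.948 by edgeR). KPNA4 was the member whose pools stood apart. It had 2.00, 1.93, 3.66, 1.95 and 6.42 CPM in deficient pools, from 43, 28, 83, 50 and 146 counts. It had 1.49, 0.733, 1.22, 0.880, 0.509 and 1.59 CPM in normal pools, from 43, 16, 33, 26, 14 and 26 counts.

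Every deficient pool was above every normal pool for KPNA4, which held for 1 of the 8 members and for 28 of 13540 tested genes (0.207%), while 53 genes (0.391%) were below in every deficient pool. The means were 3.19 ± 1.95 CPM (SD, n = 5) in deficient pools and 1.07 ± 0.432 CPM (SD, n = 6) in normal pools. The fitted log2 difference was 1.72 (SE 0.55, 95% interval 0.56 to 2.88), a 3.29-fold difference, with an unadjusted p of 0.00645 and an adjusted p of 0.758 by edgeR. It did not pass the threshold, and its p ranked 113 of 13540. Because the states did not overlap, the deficient pool was also the higher one in the 4 title codes present in both states, which adds no further support. The sizes were 0.85, 2.03, 1.85 and 2.12 on the log2 scale for A2, A3, B2 and B4. The fitted difference was 1.33 in pools titled A and 2.18 in pools titled B, and 1.35 without deficient pool B4, the highest library. Beside it, deficient pools had 14207 to 18456 genes detected and normal pools 15057 to 19245, and the correlation of KPNA4 log2 CPM with genes detected was -0.49 over 11 pools. The part of these measures, and of the cumulus markers above, in the KPNA4 values was not tested.

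KPNA1, KPNA5 and KPNA6 make up the remaining branch, and their pools overlapped between states. KPNA1 measured 12.6, 2.07, 6.93, 12.2 and 8.75 CPM in deficient pools and 12.1, 6.46, 11.2, 9.92, 8.91 and 14.7 CPM in normal pools. KPNA5 measured 5.59, 8.49, 4.54, 8.32 and 8.75 CPM in deficient pools and 5.99, 7.38, 3.65, 4.81, 2.29 and 4.41 CPM in normal pools. Deficient pools held the 3 highest KPNA5 values and deficient pool A2 the lowest KPNA1 value. The log2 differences were -0.21 (SE 0.36; adjusted p = 0.953) for KPNA1 and 0.66 (SE 0.42; adjusted p = 0.921) for KPNA5, both by edgeR. KPNA6 had 3 to 21 counts in a deficient pool and 3 to 61 in a normal pool, and its difference of -0.14 had an SE of 0.78 (adjusted p = 0.989 by edgeR). At that depth the KPNA6 interval ran from -1.80 to 1.52, so a change of several fold would not have been detected.

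KPNB1, the importin beta that carries the adaptors, followed the same picture. It measured 51.6, 15.8, 33.8, 43.3 and 51.6 CPM in deficient pools and 59.7, 24.8, 56.9, 35.2, 62.6 and 44.5 CPM in normal pools. Deficient A2 and normal A3 were again the lowest of their states, and the log2 difference was -0.14 (SE 0.25; adjusted p = 0.957 by edgeR). No gene of the 13540 passed the adjusted threshold of 0.05 in pools (percent called 0), and no member did. Without adjustment 726 genes (5.36%) and 1 of the 8 members, KPNA4, had p under 0.05. DESeq2 called 21 genes higher and 7 lower, none of them a member.

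**Figure D1:**
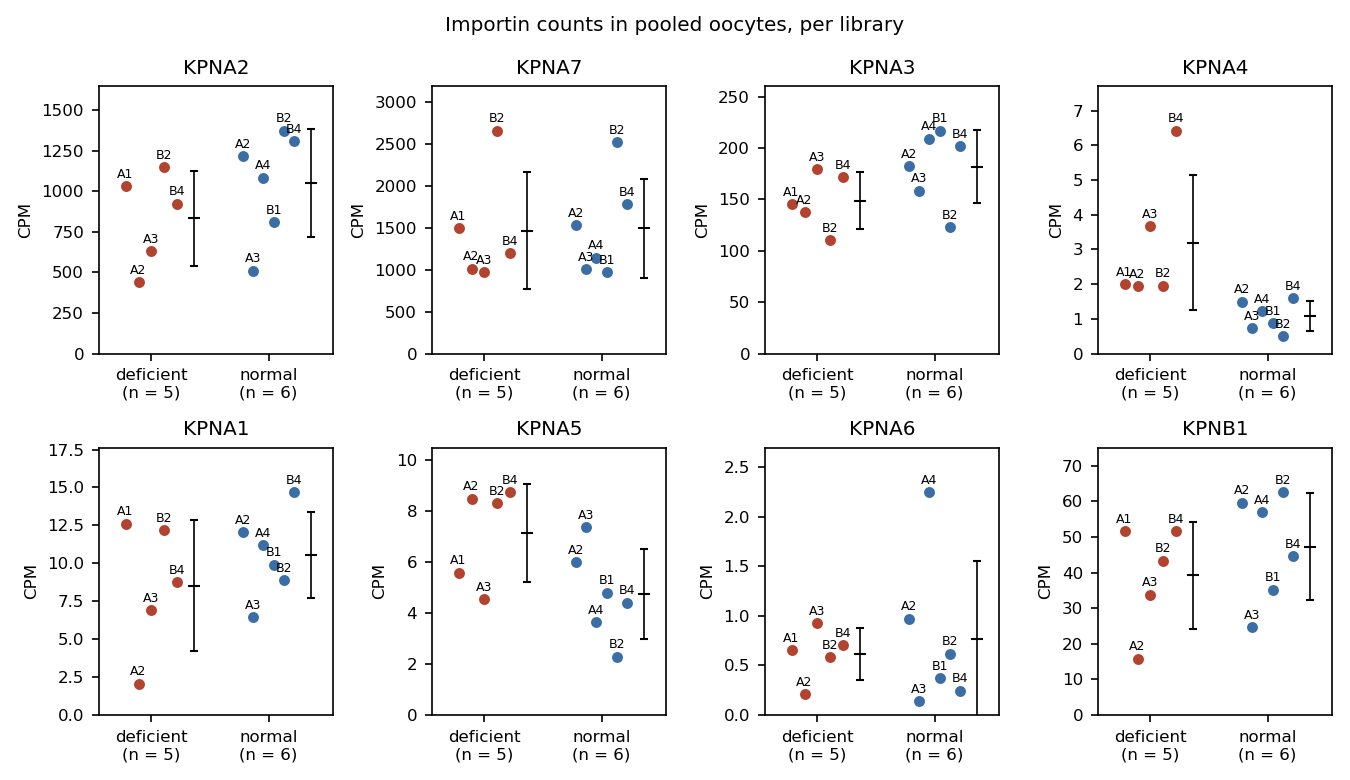
CPM of each importin gene in every pool (points with title codes), deficient pools left of normal pools, with the mean and SD beside each group. KPNA4 has its 5 deficient pools at 1.93 to 6.42 CPM, above the 6 normal pools at 0.509 to 1.59 CPM, while the other 7 genes overlap between states.

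Single oocytes were compared as sums over oocytes of the same state and the same first number in the title. This gave 4 deficient sums of 2, 2, 3 and 7 oocytes and 3 normal sums of 4, 4 and 7 oocytes. The fit had no term for the title number, so the SE, intervals and p of the sums leave out any pairing by it. A fit with that number as a block is given among the alternatives at the end. KPNA7 measured 241, 184, 219 and 361 CPM in deficient sums 1, 2, 3 and 4 and 201, 112 and 229 CPM in normal sums 2, 3 and 4. In each number that both states share except 2 the deficient sum was higher, and the groups overlapped. The log2 difference was 0.29 (SE 0.20, 95% interval -0.13 to 0.71; unadjusted p = 0.157, adjusted p = 1.00 by edgeR). KPNA2 had 325, 177, 286 and 360 CPM in deficient sums and 241, 183 and 344 CPM in normal sums, a log2 difference of -0.02 (SE 0.19). KPNA3 had 115, 49.6, 108 and 114 CPM in deficient sums and 90.2, 102 and 104 CPM in normal sums, with a log2 difference of -0.27 (SE 0.23). Deficient sum 2 was the lowest library of both genes.

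Among the less counted members, KPNB1 had 19.5, 33.5, 26 and 29.4 CPM in deficient sums and 15.1, 13.3 and 23.4 CPM in normal sums. The lowest deficient sum lay below the highest normal sum, and the log2 difference was 0.51 (SE 0.31, 95% interval -0.14 to 1.17). KPNA1 and KPNA6 differed by 0.34 (SE 0.51) and 0.56 (SE 0.74). KPNA4 and KPNA5 stayed under the count filter. KPNA4 had 16 counts in the 14 deficient and 17 in the 15 normal oocytes, in 4 and 7 of them, with means of 0.807 and 0.788 CPM, so its separation between states in pools was not seen in single oocytes at this depth. KPNA5 had 16 counts in deficient and 4 in normal oocytes, in 4 and 1 of them. Of the 6 members tested, none passed in 11964 genes (percent called 0; adjusted p = 1.00 for each by edgeR), and none had an unadjusted p under 0.05, against 231 genes (1.93%). No member had every deficient sum above every normal sum, which held for 384 genes (3.21%), or below, which held for 62 (0.518%). These were ranges of CPM with LOC102158401 in the total. That row took 46.7% to 70.7% of the counts of deficient oocytes and 56.2% to 76.0% of those of normal ones. In the fit with TMM factors 49.7% of tested genes had a positive log2 difference. The part of scaling in the 384 and 62 genes was not tested.

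The single oocytes show how far these sums rest on single cells. KPNA7 ranged from 165 to 455 CPM with a median of 252 in 14 deficient oocytes, and from 80.5 to 337 CPM with a median of 175 in 15 normal oocytes. Without LOC102158401 in the total, it ranged from 504 to 1012 with a median of 623 in deficient oocytes and from 335 to 840 with a median of 501 in normal oocytes. The ranges overlapped on both scales, and deficient oocytes had the higher median on both. The column names of single oocytes carry 1 of 2 dates, 17 and 22 September. By date, KPNA7 averaged 258 ± 62.0 CPM (SD, n = 8) in deficient and 161 ± 48.6 CPM (SD, n = 9) in normal oocytes of 17 September, and 321 ± 110 and 239 ± 71.9 CPM (SD, n = 6 each) in deficient and normal oocytes of 22 September. With each oocyte as a sample and the date as a covariate, the log2 difference was 0.37 (SE 0.12), with an adjusted p of 0.739 by edgeR. The 29 oocytes fall into 4 title numbers that were taken to pair the sums, so they may not be independent and the SE and p of fits over oocytes can be too small; the comparison of states is that of the sums above. By date the value was 0.46 on 17 September and 0.23 on 22 September, with adjusted p of 0.574 and 0.869. Oocytes titled 1 and 3 were all of 17 September, those titled 2 were all of 22 September, and those titled 4 were of both dates.

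KPNA2 ranged from 169 to 538 CPM with a median of 293 in deficient oocytes and from 138 to 429 CPM with a median of 280 in normal oocytes. KPNA3 had medians of 106 and 100 CPM, and KPNB1 had medians of 25.9 and 22.9 CPM, in deficient and in normal oocytes. These ranges overlapped, and KPNB1 fell to 1.01 CPM in 1 normal oocyte, which is a single count. KPNA1, KPNA2, KPNA3, KPNA7 and KPNB1 were counted in 29 of 29 oocytes, KPNA6 in 25, KPNA4 in 11 and KPNA5 in 5. A count of 0 in an oocyte allows up to 3 counts, so absence of KPNA4 or KPNA5 from an oocyte cannot be read from these libraries.

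**Figure D2:**
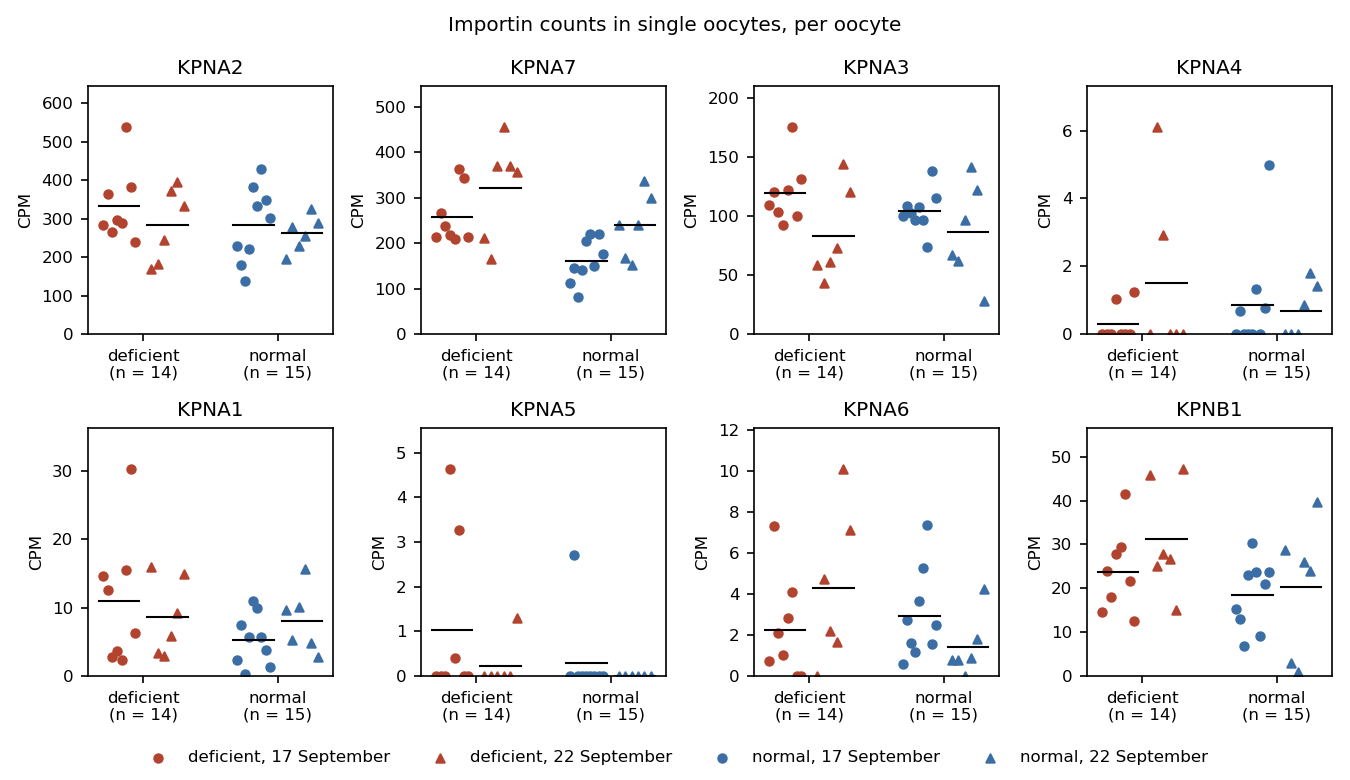
CPM of each importin gene in every single oocyte, deficient left of normal, with circles for the libraries of 17 September and triangles for those of 22 September, and a bar at each mean. KPNA7 averages 258 and 161 CPM in deficient and normal oocytes of 17 September and 321 and 239 CPM on 22 September, with overlapping ranges.

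The state effect was then set against itself between pools and sums by an interaction term in a joint fit of 11 pools and 7 sums. None of 17643 genes passed (percent called 0), 939 (5.32%) had an unadjusted p under 0.05, and no member was among them. The smallest member p was that of KPNB1, with a log2 difference of the state effects of -0.62 (SE 0.44, p = 0.168, adjusted p = 0.928 by edgeR). For KPNA7 it was -0.17 (SE 0.37, 95% interval -0.93 to 0.60). For KPNA4 it was 1.08 (SE 1.34), from 33 counts in the single oocytes, and the value went to -0.76 without normal sum 4.

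**Figure D3:**
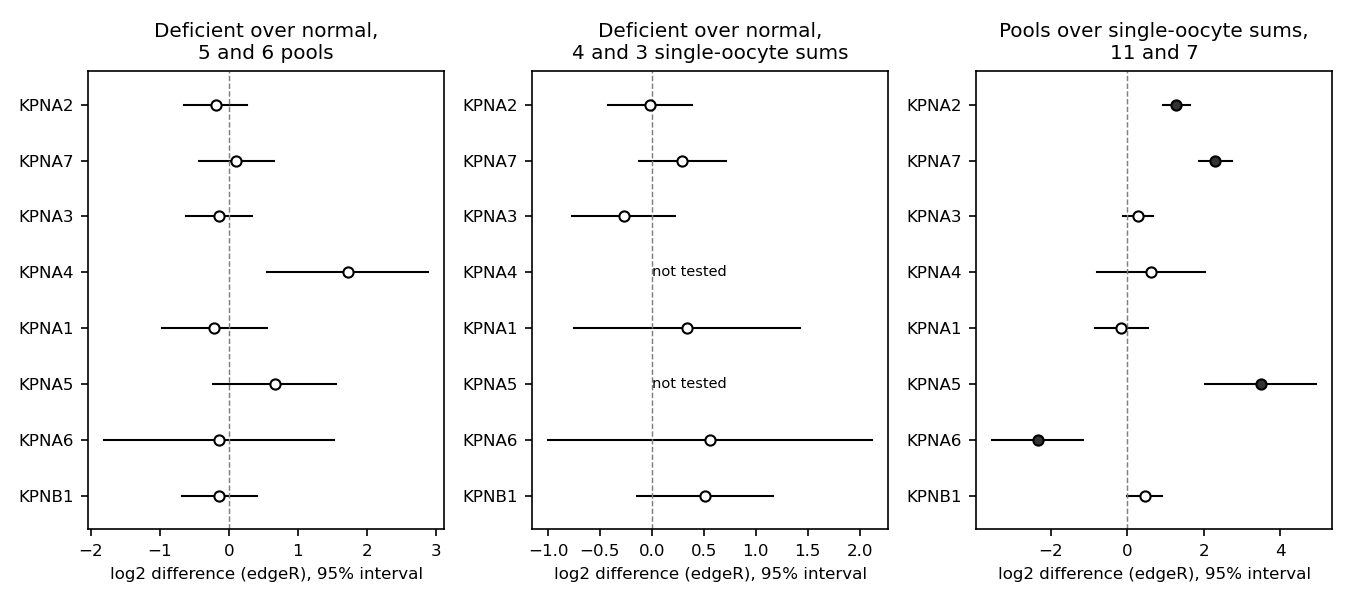
Fitted log2 differences of each importin gene with 95% intervals, for deficient over normal pools, deficient over normal single-oocyte sums, and pools over sums; filled points passed the adjusted threshold of 0.05. The intervals of the state comparisons include 0 for every tested gene except KPNA4 in pools (0.56 to 2.88), whose adjusted p is 0.758.

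The library types differed far more than the mtDNA states. In pools against single-oocyte sums 11957 of 17643 genes passed (67.8%), 5739 higher (32.5%) and 6218 lower (35.2%), and 4 of the 8 members did, a share below that of all genes. KPNA7 measured 969 to 2657 CPM in pools and 112 to 361 CPM in sums, a log2 difference of 2.30 (SE 0.21; adjusted p = 6.31e-10 by edgeR). KPNA2 measured 438 to 1373 CPM in pools and 177 to 360 CPM in sums, a log2 difference of 1.28 (SE 0.17; adjusted p = 4.78e-07). Among single oocytes KPNA2 reached 538 CPM, above the 438 CPM of deficient pool A2. Without LOC102158401 in the total, KPNA2 measured 525 to 873 CPM in sums, inside its range of 438 to 1374 CPM in pools. On that scale KPNA7 measured 391 to 781 CPM in sums and 969 to 2657 CPM in pools. The share of all genes with separate ranges in pools and sums was not counted. KPNA5 was counted in every pool, at 2.29 to 8.75 CPM, and in 3 of 7 sums, at 0.501 to 1.70 CPM, with a log2 difference of 3.48 (SE 0.70; adjusted p = 0.000115). Without normal sum 3 the value was 6.18, since the remaining normal sums are at 0.

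KPNA6 was the member that went the other way. It had 0.138 to 2.25 CPM in pools and 0.637 to 4.18 CPM in sums, a log2 difference of -2.35 (SE 0.57; adjusted p = 0.000888 by edgeR). With normal libraries alone it was -1.94 with an adjusted p of 0.0814. KPNB1, at 15.8 to 62.6 CPM in pools and 13.3 to 33.5 CPM in sums, had a log2 difference of 0.46 (adjusted p = 0.0696). That value passed without deficient pool A2 (0.55, adjusted p = 0.0231) or deficient sum 2 (0.56, adjusted p = 0.0311). KPNA3, KPNA4 and KPNA1 had 0.28, 0.61 and -0.15 and did not pass.

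The scale of the type comparison depends on normalization. The median over all genes was -0.13 with TMM factors and -0.60 with RLE size factors, and calls were 48.0% higher with TMM and 38.3% higher with RLE. Relative to the TMM median KPNA7 was 2.43 and KPNA2 1.41 on the log2 scale. Under RLE the same 4 members passed in the same directions, while KPNA3 and KPNB1 changed sign, to -0.19 and -0.04. Counted without LOC102158401, which was chosen as a measure after its share had been seen, KPNA7 averaged 1480 ± 609 CPM in pools (SD, n = 11), and 682 ± 165 and 528 ± 144 CPM in deficient and normal oocytes (SD, n = 14 and 15). KPNA2 on that scale measured 438 to 1374 CPM in pools and 420 to 1180 CPM in oocytes, and the ranges overlapped over most of their length. Kit, extraction and the number of oocytes per library differ together between the types and cannot be told apart.

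Within the family the counts were divided differently in the library types. KPNA7 held 46.6% to 67.5% of the counts of KPNA1 to KPNA7 in a pool and 27.9% to 43.2% in a single-oocyte sum. KPNA2 held 27.3% to 44.1% in pools and 41.7% to 50.0% in sums, and KPNA3 2.79% to 10.8% in pools and 11.6% to 25.3% in sums. KPNA7 therefore had the largest share in every pool, whereas KPNA2 had the largest in 5 of 7 sums. The ratio of KPNA7 to KPNA2 counts was 1.78 ± 0.49 (SD, n = 5) in deficient pools and 1.45 ± 0.37 (SD, n = 6) in normal pools, with a range of 1.06 to 2.32 over all pools. Gene length cancels in it only between libraries with like coverage along transcripts, which was not compared between the library types.

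In single oocytes the ratio was 0.943 ± 0.242 (SD, n = 14) in deficient oocytes and 0.719 ± 0.240 (SD, n = 15) in normal oocytes. Oocytes of the same title number may not be independent, so these SDs describe oocytes only. In sums the ratio was 0.743, 1.04, 0.765 and 1.00 in deficient sums 1, 2, 3 and 4. It was 0.837, 0.614 and 0.666 in normal sums 2, 3 and 4, and the states overlapped. Among oocytes the ratio also followed the date in the column names. On 17 September it averaged 0.788 ± 0.0899 in 8 deficient oocytes and 0.588 ± 0.128 in 9 normal oocytes, and all 17 oocytes were below 1. On 22 September it averaged 1.15 ± 0.227 in 6 deficient oocytes and 0.916 ± 0.240 in 6 normal oocytes. The deficient mean was the higher one in pools and on both dates, and the ranges overlapped in each. The ratio was examined after the members' values had been seen and was not tested.

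**Figure D4:**
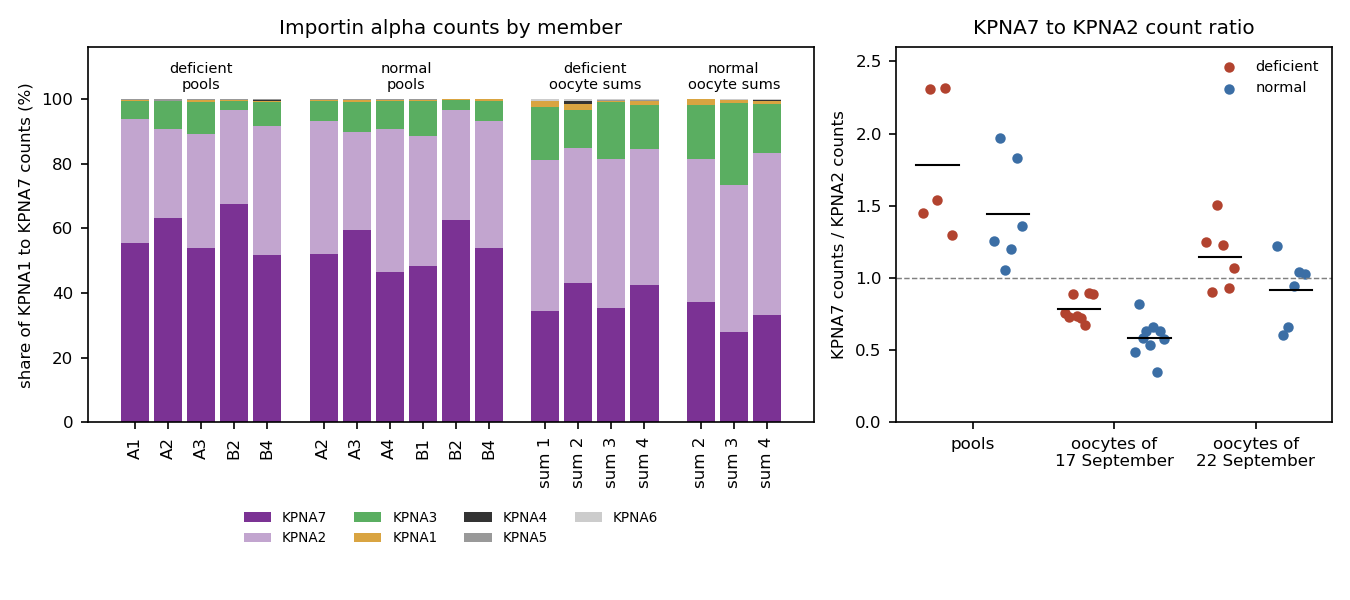
Left, share of KPNA1 to KPNA7 counts held by each member in every pool and single-oocyte sum. Right, ratio of KPNA7 to KPNA2 counts in each pool and oocyte with the mean of each group as a bar; all 11 pools lie above 1 (1.06 to 2.32) and all 17 oocytes of 17 September below it (0.350 to 0.899).

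Across pools, on log2 CPM with TMM factors, the members did not move as a block. KPNA2 followed the number of genes detected, with Pearson r 0.94 and Spearman rho 0.94 over 11 pools of both states, and r was 0.83 without deficient A2 and normal A3. KPNB1 followed KPNA2 (r 0.82, rho 0.77), with 0.52 after leaving out the same pools. KPNA3 ran opposite to KPNA7 (r -0.93, rho -0.82), with -0.69 without the 2 pools titled B2 and -0.61 with no TMM factors. Other members were more alike with no TMM factors. KPNA2 then had r 0.75 with KPNA7, 0.92 with KPNB1 and 0.84 with KPNA1, against 0.49, 0.82 and 0.73 with the factors. KPNA7 then had r 0.71 with genes detected, against 0.44 with the factors. These are descriptions over libraries that differ in depth and share a preparation. Over the 29 oocytes KPNA2 and genes detected had r 0.07, KPNA2 and KPNB1 -0.13, and KPNA3 and KPNA7 -0.43.

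Of 4826 named genes with a mean of at least 10 CPM in pools, those with the highest r with KPNA7 over the 11 pools included ACTG1 (0.96), which encodes a cytoplasmic actin, GDF9 (0.90), a growth factor secreted by oocytes, PPIA (0.90), a prolyl isomerase, and TMEM106A (0.89), a membrane protein. Without the pools titled B2 these were 0.87, 0.81, 0.71 and 0.85. Over the 29 oocytes the same genes had r of -0.08, 0.16, 0.10 and 0.04. They were picked for the highest r in pools, so a lower r in other libraries says little. Counts of a single oocyte are also fewer than those of a pool, and the part of counting noise was not tested.

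**Figure D5:**
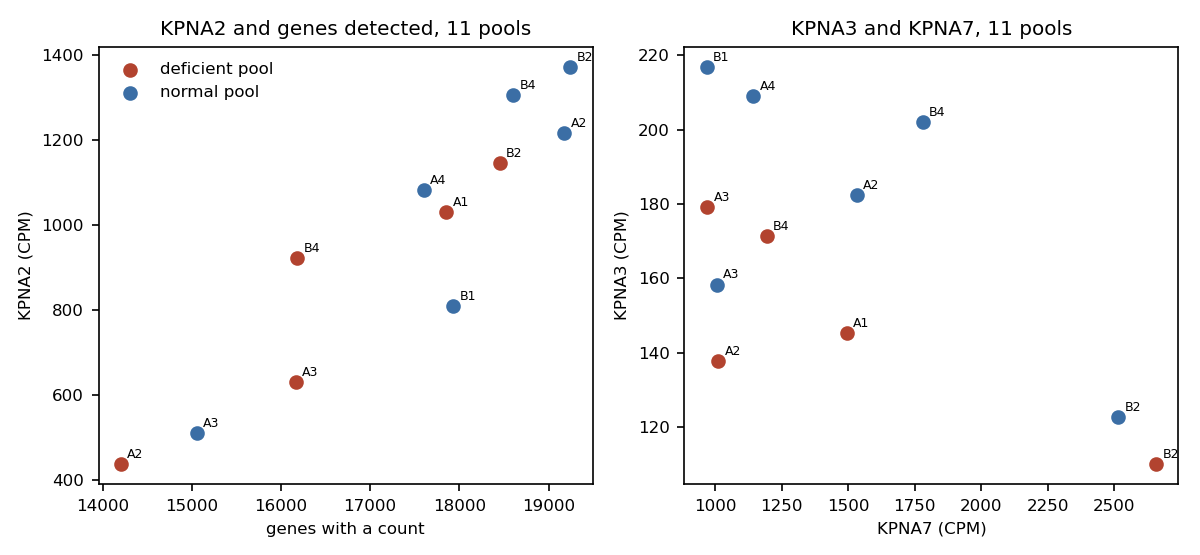
Left, KPNA2 CPM against the number of genes with a count in each pool; right, KPNA3 CPM against KPNA7 CPM in each pool, with title codes. KPNA2 is lowest in deficient A2 (438 CPM, 14207 genes) and normal A3 (511 CPM, 15057 genes), and the pools titled B2 combine the highest KPNA7 with the lowest KPNA3 of their states.

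The partners of the family gave the same absence of calls between states. Of 61 genes listed for the Ran cycle and importin alpha recycling, other importins, exportins, the nuclear pore, and spindle or envelope factors held by importins, 56 had a row. None passed in pools or in sums, as no gene did (percent called 0 in both). In pools 4 of 7 tested Ran cycle genes had a positive log2 difference, 4 of 6 other importins, 4 of 6 exportins, 10 of 23 pore genes and 4 of 7 spindle or envelope genes. The list medians in pools were 0.03, 0.02, 0.06, -0.02 and 0.11 in that order, against -0.0019 over all tested genes. In sums 5 of 8, 6 of 8, 2 of 6, 14 of 23 and 7 of 8 were positive, with medians of 0.10, 0.39, -0.11, 0.03 and 0.25, against -0.0018 over all tested genes.

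The genes of smallest p in each list in pools had values near the threshold without adjustment. LMNB1, which encodes a lamin of the nuclear envelope, had 143 ± 39.6 CPM in deficient pools and 240 ± 85.4 CPM in normal pools (SD, n = 5 and 6). Its log2 difference was -0.59 (SE 0.22, unadjusted p = 0.0167, adjusted p = 0.901 by edgeR), and 0.40 (unadjusted p = 0.0939, adjusted p = 1.00) in sums. The difference of these effects had an unadjusted p of 0.0103 and an adjusted p of 0.886 by edgeR. LMNB1 was named for its small p in pools, and that pool effect is part of this difference. The unadjusted p of the difference therefore adds no separate support. TNPO3, the importin of splicing factors, had 23.9 ± 12.4 CPM in deficient pools and 44.5 ± 15.1 CPM in normal pools (log2 difference -0.78, adjusted p = 0.903 by edgeR). RANBP3, a cofactor of nuclear export, had 5.64 ± 3.60 CPM in deficient pools and 12.1 ± 6.37 CPM in normal pools (-0.97, adjusted p = 0.921 by edgeR). TPR, a filament of the pore's nuclear basket, had 405 ± 43.0 CPM in deficient pools and 297 ± 78.1 CPM in normal pools (0.54, adjusted p = 0.921 by edgeR). XPO7, an exportin, had 324 ± 34.1 CPM in deficient pools and 290 ± 49.4 CPM in normal pools (0.32, adjusted p = 0.921 by edgeR).

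The second gene of each list was RANBP1 (-0.63), TNPO2 (-0.32), XPO5 (-0.25), AAAS (-0.65) and KIF15 (0.39), as log2 differences in pools. RANBP1, which helps Ran to hydrolyse GTP, had the opposite sign in sums, at 0.64 with an unadjusted p of 0.0219. Between library types, where 32.5% of all tested genes were higher in pools and 35.2% lower, 3 Ran cycle genes were higher and 4 lower, among 8 tested. Other importins gave 4 higher and 5 lower of 9, exportins 4 and 1 of 6, pore genes 13 and 5 of 23, and spindle or envelope genes 5 and 4 of 9. CSE1L, the exporter of importin alpha, averaged 383 ± 72.7 CPM in pools and 12.8 ± 8.15 CPM in oocytes (SD, n = 11 and 29). Its log2 difference of pools over sums was 4.46 (adjusted p = 2.89e-15 by edgeR), the largest of its list.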

How the data were processed

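The authors deposited raw, whole-number counts for each gene, in a table of 11 pools and a table of 29 single oocytes. The submitters' processing notes name Trim Galore, FastQC and TopHat2 2.0.14, with edgeR and the build Sscrofa10.2. How reads were assigned to genes, whether strand was used and how reads shared by related genes were treated is not stated in those notes or the labels. Counts of the related adaptors, and of any overlapping antisense gene, carry that uncertainty. A blank row, 1 per file, was left out of totals and tests; it held 1.05% to 4.75% of a pool's counts and 0.648% to 8.15% of an oocyte's.

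All genes that passed filterByExpr were fitted with edgeR 4.0.16 in R 4.3.3 (TMM factors, quasi-likelihood test), and p-values were adjusted by Benjamini-Hochberg, with a threshold of 0.05. Pools and sums were fitted alone and, for the interaction and the library type, jointly. Correlations used log2 CPM with TMM factors and a prior count of 2. The scripts were tested on simulated data. Alternatives were RLE size factors, no filter, DESeq2 1.42.0, limma-voom (limma 3.58.1), title codes, letters and dates, each oocyte as a sample, leading rows left out, and leaving out each library. The limit set by a count of 0 covers counting error only, and intervals of differences are at 95%.

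The series text speaks of 5 pools in a group, and 6 normal pools were present. Libraries of a group always differed by more than sampling noise (chi-square per degree of freedom at least 35.0 among pools and 4.09 among oocytes). Deviations of sums with the same title number correlated by 0.143, 0.220 and 0.164, above 0.1 in all 3 pairs, so these numbers were taken to pair the sums. The title codes of the pools gave -0.104 for A2, 0.127 for A3, 0.476 for B2 and 0.0779 for B4. They were not above 0.1 in every pair and were not taken to pair the pools. Deficient pools A3, B2 and B4 still correlated best with the normal pool of their own code (highest other 0.12, 0.197 and 0.0225). The SE, intervals and p of the pools leave out any such pairing. The main fit of the sums has no term for their pairing, which enters only as an alternative.

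The members and gene lists were chosen with earlier results of these data known. Named are all members, the 2 genes of smallest p in pools of each list, the 5 genes most correlated with KPNA7, of which 1 is not reported here, and CSE1L, picked after its value was seen; other genes of the lists that passed between library types are counted only.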

Additional observations from a re-analysis of the deposited data

Results flagged for a closer look

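Of 24 groups of 4 to 10 libraries searched for a library far from the rest, 2 held one, and chance alone marks about 1 group in 20. Both concern deficient sum 2, made of 2 oocytes of 22 September. For KPNA3 this sum had 49.6 CPM, the lowest of 4 deficient sums, and the nearest of the others had 108 CPM. The search used CPM with LOC102158401 in the total. Without that row this sum had 147 CPM of KPNA3, still the lowest, and the other deficient sums 247 to 294 CPM. The search was not run on that scale, where the gap is smaller beside the range. For KPNA4 the same sum had 3.63 CPM, from 9 counts that all came from 1 oocyte, and the nearest of the other deficient sums had 0.613 CPM. Without this sum the KPNA3 difference between deficient and normal sums was -0.12 on the log2 scale, against -0.27 with it; leaving out each sum in turn gave -0.38 (without deficient sum 3) to -0.075 (without normal sum 3).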

How the results depend on the processing

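No setting gave a member that passed between mtDNA states in pools, in sums or in the interaction. KPNA4 in pools kept its sign in all 20 alternatives, at 1.33 to 2.18 on the log2 scale with adjusted p of 0.147 (DESeq2) to 0.999. Its pools did not overlap between states, so the kept sign adds little. Signs of small differences turned. In pools, KPNA7 was -0.13 with the title code as a replicate block and -0.067 in the same 8 pools with no replicate block; KPNA6 was 0.66 and 0.50 in these fits, 0.19 with limma-voom and 0.70 in pools titled B, where KPNB1 was 0.091; KPNA3 was 0.020 in the 8 pools with no block. In single oocytes, KPNA1 was -0.17 on 22 September, and KPNA2 was 0.0056 in sums by number and date and 0.00020 on 17 September. Between types, KPNA1 was 0.18 in normal libraries alone, KPNB1 -0.062 in deficient ones and 0.84 (adjusted p = 0.0218) in normal ones, and under RLE KPNA3 was -0.19 and KPNB1 -0.038. With each oocyte as a sample 2 members passed between types, since only 10628 genes, and 5 members, were tested. The causes of the other changes were not tested.

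Leaving out each library gave, in pools, KPNA1 -0.40 to 0.014, KPNA6 -0.39 to 0.53, KPNA7 -0.14 to 0.26 and KPNB1 -0.25 to 0.025; in sums KPNA2 -0.088 to 0.096, KPNA1 0.11 to 0.80 (without normal sums 3 and 2), KPNA6 0.17 to 1.14 (normal sums 2 and 4), KPNA7 0.15 to 0.37 (normal sums 3 and 2) and KPNB1 0.28 to 0.66 (deficient sums 2 and 1); between types KPNA1 -0.29 to 0.090, KPNA4 0.40 to 1.53 (deficient sum 1 and normal sum 4) and 4 to 5 members called; and in the interaction KPNA3 -0.054 to 0.27, KPNA4 -0.76 to 2.80, KPNA5 -6.35 to 0.16 and KPNA6 -1.31 to 0.0049.

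The title number as a replicate block on the sums called 0 genes higher and 2 lower and changed no call of a member; KPNA7 was then 0.34 with an adjusted p of 0.999. Over all genes, sums with no filter called 2 higher and 2 lower, and with DESeq2 1 and 1; each oocyte as a sample called 1 lower, also with the date as a covariate, and 2 lower on 17 September alone. In the interaction, each oocyte as a sample called 1 higher and 2 lower, and between types normal libraries alone called 3968 lower. Depth limits KPNA4, KPNA5 and KPNA6 most, with 33, 20 and 112 counts in all oocytes together.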
